A study of Rattus norvegicus with 9 samples.

Results

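The genes of the cell cycle were examined in microglia, the resident macrophages of the retina, to ask whether the sorted cells carried RNA of proliferation and whether it differed between control and diabetic rats. The set was a list of 39 genes of DNA replication, mitosis, cyclins and their kinases and inhibitors, chosen by name. Of these, 38 were rows of the count table, which holds 28343 genes. Ccnb2 was not analysed here. After a filter on low counts 37 members were tested, and Rrm2 was below the filter. The libraries came from retinas of Dark Agouti rats, an inbred strain. The 5 control libraries (numbered 1, 3, 4, 5 and 6) were from rats given citrate buffer. The 4 diabetic libraries (numbered 1, 2, 4 and 5) were from rats given streptozotocin, a toxin of the insulin-producing beta cells, at 55 mg/kg. Rats of both groups were injected at 8 to 10 weeks of age. All rats had been fasted for 12 hours before the injection and retinas were taken 4 weeks after it. Diabetic rats whose blood glucose passed 30 mmol/l received 2 units of insulin. Blood glucose values are not given here, nor which of the rats behind these libraries received insulin. Cells were freed with papain and sorted by flow cytometry on CD11b, a surface protein that other myeloid cells also carry. The labels do not say whether a library came from 1 rat or several, so p-values measure the spread between these libraries, which may in part be technical.

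A dividing cell passes through G1, in which cyclins D and E with CDK4, CDK6 and CDK2 inactivate the retinoblastoma proteins and release E2F factors. E2F factors switch on the genes of DNA synthesis. The mitotic genes follow in G2, among them those of cyclin A, cyclin B, CDK1 and the kinases of the spindle. Microglia are long-lived cells that divide rarely in the healthy adult retina and can multiply after injury, with signals through the CSF1 receptor among the known drivers.

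Counts totalled 9156591 to 11332823 in control and 6228756 to 9629829 in diabetic libraries, and levels are given as normalised CPM, counts scaled to a common library size with TMM factors. The label of the cells was checked against markers. The 15 genes of the microglia list summed to 35175 to 40064 CPM in control and 35224 to 37390 CPM in diabetic libraries, with Siglech at 0 in all libraries. Genes of neutrophils and monocytes, 11 in the table, summed to 4.90 to 16.5 CPM in control and 28.7 to 96.5 CPM in diabetic libraries, with no overlap, and Ccr2 and Mpo were at 0. The 6 border macrophage genes summed to 348 to 716 CPM in control and 606 to 1363 CPM in diabetic libraries. The 8 lymphocyte genes reached 3.18 CPM at most, with Cd3d, Cd3g, Ms4a1 and Nkg7 at 0. The 12 inner retinal neuron genes summed to 42.5 to 87.9 CPM in control and 61.9 to 215 CPM in diabetic libraries. Vascular cell genes (13, at 216 to 413 and 171 to 251 CPM), photoreceptor genes (9, at 231 to 1242 and 349 to 1764 CPM) and Muller glia genes (9, at 12456 to 17432 and 12131 to 13970 CPM, of which most is Apoe, a gene that microglia also express) overlapped between the groups. The 18 genes of the isolation response, immediate-early and stress genes, summed to 24473 CPM in control 4 and 33308 CPM in control 6, against 4163 to 9367 CPM in the other controls and 12432 to 19285 CPM in the diabetic libraries. The part of these cells and of this response in the results was not tested, unless a value is given beside a result.

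By edgeR's quasi-likelihood test, 0 of the 37 members passed a Benjamini-Hochberg adjusted p of 0.05 over all 11748 genes tested, where 0.0681% of all genes did. Member adjusted p-values ran from 0.124 to 0.988. At an unadjusted p below 0.05 there were 6 members (16.2%), against 18.9% of all genes tested (8.94% higher and 10.0% lower in diabetic libraries). The 4 replication genes, Mcm2, Mcm3, Mcm6 and Rrm1, were on the lower side in diabetic libraries, and the mitotic genes Kif20a and Plk1 on the higher side. The groups did not overlap for 3 members, all lower in diabetic libraries (8.11%, against 8.44% of all genes, 4.27% higher and 4.16% lower). Both shares of the whole list were close to those of all genes. DESeq2's Wald test called 2 members, Mcm6 and Rrm1, or 5.41% of 37, where it called 5.16% of the 11596 genes with an adjusted p. By limma-voom 0 members and 0.0340% of all genes were called.

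**Figure D1:**
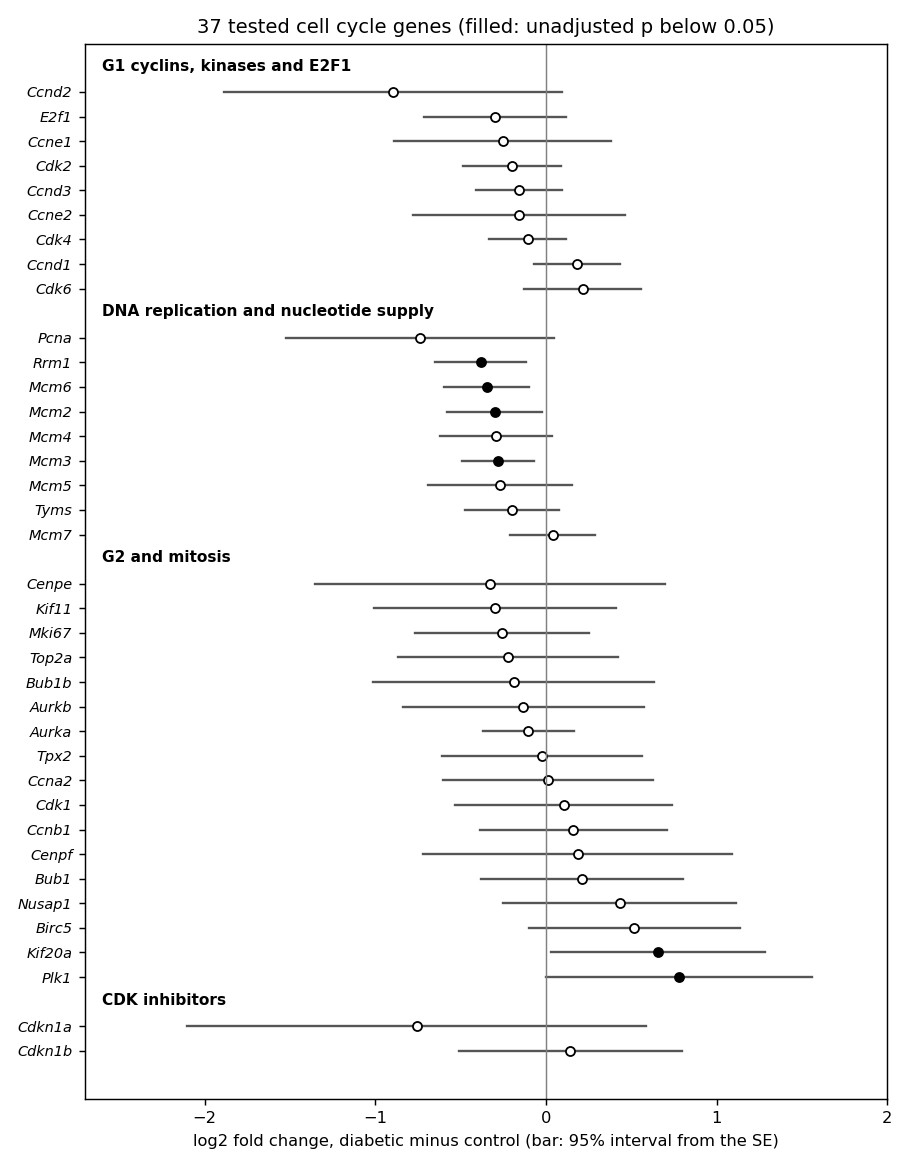
Log2 fold change (diabetic minus control) of the 37 tested members by role, as points with 95% intervals from the SE. Filled points are the 6 members with an unadjusted p below 0.05, 4 of them replication genes below 0 and 2 mitotic genes above 0, and none passed after adjustment over all genes.

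RNA of mitosis was present at a low level in every library, in controls as in diabetic rats. Mki67, which encodes the Ki-67 protein used as a stain for cycling cells, was at 7.36, 16.3, 14.7, 14.01 and 11.1 CPM in controls 1, 3, 4, 5 and 6 and at 12.9, 9.69, 12.7 and 7.30 CPM in diabetic 1, 2, 4 and 5. The diabetic values lay almost wholly within the control range, with diabetic 5 just under control 1. Its log2 fold change was -0.26 (SE 0.26, edgeR adjusted p = 0.581), with a 95% interval of -0.77 to 0.25. Top2a, the topoisomerase that untangles chromosomes before they part, was at 5.10, 18.4, 11.9, 17.3 and 12.4 CPM in the controls and 15, 9.69, 10.99 and 8.997 CPM in the diabetic libraries. Control 1 was the lowest of all 9 libraries for Top2a, and the diabetic values fell inside the control range (log2 fold change -0.22, SE 0.33, edgeR adjusted p = 0.724). In bulk RNA, fewer cycling cells and less RNA per cycling cell cannot be told apart.

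The kinase and cyclins that drive entry into mitosis gave the same picture. Cdk1, the mitotic kinase (ENSRNOG00000000632, Rnor6 chromosome 20, 20576377 to 20591509, plus strand), was at 6.13, 7.46, 3.33, 6.31 and 4.77 CPM in the controls and 6.22, 5.61, 9.39 and 3.20 CPM in the diabetic libraries. Its highest and its lowest value were both in diabetic libraries, and its log2 fold change was 0.11 (SE 0.32, edgeR adjusted p = 0.879). Ccna2, cyclin A2, was at 3.02, 7.20, 3.22, 4.92 and 3.87 CPM and at 4.54, 5.61, 4.78 and 3.10 CPM, so that every diabetic value was within the control range (log2 fold change 0.013, SE 0.31, edgeR adjusted p = 0.988). Ccnb1, cyclin B1, was at 6.51, 11.53, 5.69, 11.55 and 7.86 CPM and at 8.79, 7.96, 14.5 and 7.70 CPM. Diabetic 4 was the highest library for Ccnb1 and the other diabetic libraries were among the controls (log2 fold change 0.16, SE 0.28, edgeR adjusted p = 0.770). Without normalization factors Cdk1, Ccna2 and Ccnb1 kept their signs, with log2 fold changes of 0.20, 0.12 and 0.26. All of them turned when controls 4 and 6 were left out together, and also when diabetic 4 was left out.

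Kif20a and Plk1 were the mitotic members with the smallest p-values. Kif20a, a kinesin of the central spindle needed for cytokinesis, was at 6.04, 7.28, 6.23, 8.45 and 3.35 CPM in the controls and 11.8, 11.3, 11.1 and 5.50 CPM in the diabetic libraries. Of the diabetic libraries 3 were above every control, and diabetic 5 was below 4 of the 5 controls. The log2 fold change was 0.66 (SE 0.32, edgeR adjusted p = 0.242). Plk1, a kinase of spindle assembly and mitotic exit, was at 3.59, 4.08, 2.26, 3.53 and 2.06 CPM in the controls and 7.30, 6.22, 5.89 and 2.10 CPM in the diabetic libraries. Again diabetic 1, 2 and 4 were above every control and diabetic 5 was not (log2 fold change 0.78, SE 0.40, edgeR adjusted p = 0.262). Without controls 4 and 6 the log2 fold changes of Kif20a and Plk1 were 0.45 and 0.52, and neither had an unadjusted p below 0.05 once control 1, control 4, diabetic 1, diabetic 2 or diabetic 4 was left out. Diabetic 1 and 4 had the highest summed levels of neutrophil and monocyte genes (66.1 and 96.5 CPM) and of border macrophage genes (1363 and 965 CPM), with diabetic 2 at 28.7 and 606 CPM and diabetic 5 at 33.9 and 767 CPM. The part of those cells in the Kif20a and Plk1 values was not tested.

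Of the remaining mitotic members, the survivin gene Birc5 (chromosome 10, 106856097 to 106864413, plus strand) averaged 5.67 ± 1.80 CPM (SD, n = 5 here and in all control means) and 8.15 ± 2.50 CPM (SD, n = 4 here and in all diabetic means), a log2 fold change of 0.52 with an edgeR adjusted p of 0.341. Nusap1, a spindle microtubule protein, was at 3.68 ± 0.777 and 5.02 ± 2.39 CPM, with diabetic 1 and 4 (6.22 and 7.80 CPM) above every control and diabetic 2 and 5 (2.96 and 3.10 CPM) near the lowest. The spindle checkpoint kinase genes Bub1 and Bub1b had log2 fold changes of 0.21 and -0.19. Those of the centromere proteins Cenpe and Cenpf were -0.33 and 0.19, and those of the spindle motor Kif11 and the microtubule nucleator Tpx2 were -0.30 and -0.021. Aurkb, the kinase of the chromosomal passenger complex (chromosome 10, 55627025 to 55634991, plus strand), had -0.13. None of these 9 genes came below an edgeR adjusted p of 0.3, and the counts behind them were small, down to 8 in a library for Cenpe. Over the 17 tested genes of G2 and mitosis 9 were higher and 8 lower, with a median log2 fold change of 0.013, beside a median of 0.0018 over all genes tested. This median was not stable: it was 0.26 without control 3, 0.16 without diabetic 5 and -0.071 without diabetic 4. The median SE of a log2 fold change in this group was 0.32, against 0.14 in the replication group, so that small differences were less detectable here at this depth.

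Aurka, the kinase of centrosome maturation, differed from the other mitotic members in its counts. It had 1284 to 1985 counts in control and 816 to 1724 in diabetic libraries, while the other 16 members had at most 212 counts in any library. Aurka was at 187, 149, 140, 149 and 165 CPM in the controls and 163, 176, 130 and 120 CPM in the diabetic libraries. The highest value was in control 1, the library that was lowest for Mki67 among the controls and lowest of all for Top2a. The highest library exceeded the lowest 1.56-fold for Aurka and 3.61-fold for Top2a. CPM is not divided by transcript length, so these counts do not rank the genes by abundance. The log2 fold change of Aurka was -0.10 (SE 0.13, edgeR adjusted p = 0.682), and it turned to 0.016 without normalization factors.

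The summed mitotic RNA varied more within the groups than between their means. Without Aurka, a choice made after its values had been seen, the 16 genes summed to 67.7 CPM in control 1, 131 CPM in control 3, 80.5 CPM in control 4, 119 CPM in control 5 and 90.3 CPM in control 6. In the diabetic libraries the sums were 124, 96.6, 122 and 70.5 CPM in diabetic 1, 2, 4 and 5. Control 3 was the highest library for 6 of the 16 genes and diabetic 4 for 5, while control 1 was the lowest for 6. The sum differed 1.93-fold between the extreme libraries, both of them controls. The microglia markers summed to 38817 CPM in control 3 and 40064 CPM in control 1, a far smaller gap than in the mitotic genes. The border macrophage genes summed to 716 CPM in control 3 and 364 CPM in control 1. Neutrophil and monocyte genes went the other way, at 11.2 CPM in control 3 and 16.5 CPM in control 1. The part of these cells in the mitotic sums was not tested.

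**Figure D2:**
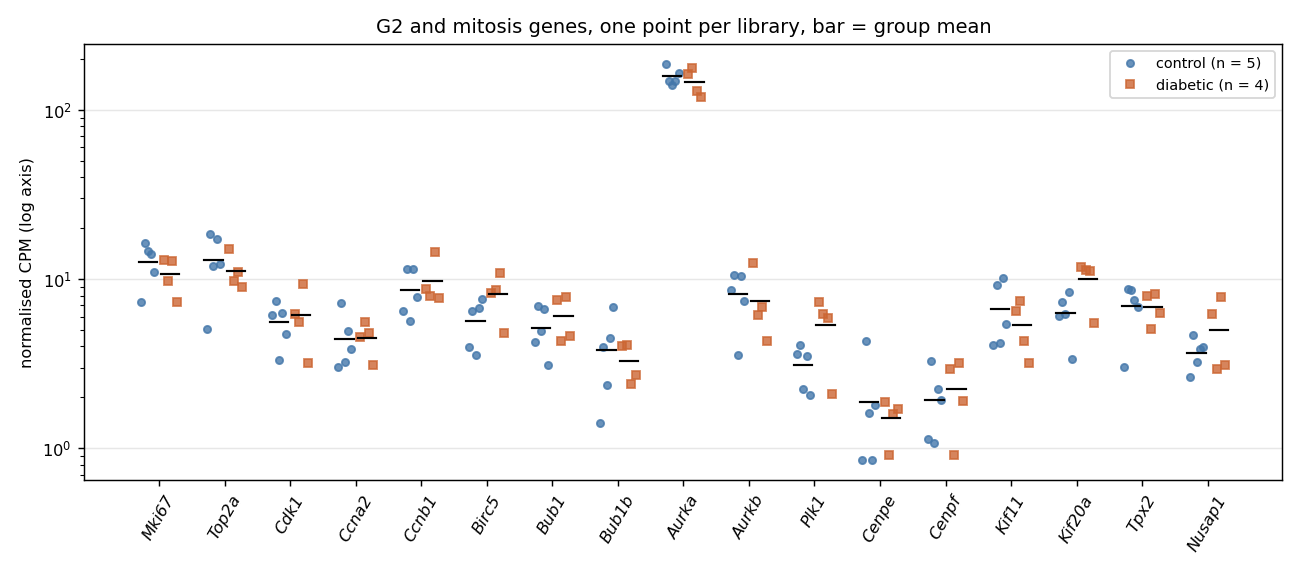
Normalised CPM (log axis) of the 17 tested G2 and mitosis genes, with 1 point per library and a bar at the group mean, for 5 control and 4 diabetic libraries. The groups overlap for every gene, and Aurka, at 120 to 187 CPM, has far more counts than the others.

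The genes of DNA replication and nucleotide supply leaned lower in diabetic libraries, although none passed after adjustment. Of 9 tested members 8 had a log2 fold change below 0, where 49.7% of all genes did, with a median of -0.29. Rrm1, Mcm6, Mcm3 and Mcm2 had an unadjusted p below 0.05 in the lower direction, which 10.0% of all genes had. The lean was there relative to all genes under every scaling tried, but without normalization factors, where the median over all genes moved to 0.12, the group median was -0.17, 0 replication genes had an unadjusted p below 0.05, and 0 members were free of overlap. Summed over the 10 genes, the level was 473, 517, 589, 500 and 642 CPM in controls 1, 3, 4, 5 and 6 and 425, 398, 388 and 431 CPM in diabetic 1, 2, 4 and 5. All 4 diabetic sums were below all control sums, and they stayed below with Pcna left out (333 to 397 and 284 to 330.5 CPM). The 6 Mcm genes alone overlapped, with diabetic 1 at 251 CPM above control 6 at 246 CPM. On total counts without TMM factors the 10-gene sums still did not overlap (487 to 546 and 391 to 455 CPM), but those without Pcna did (280 to 404 and 286 to 354 CPM).

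Rrm1, the large subunit of ribonucleotide reductase that makes deoxynucleotides, was at 75.8, 66.3, 74.99, 83.65 and 68.8 CPM in the controls and 59.8, 48.2, 54.0 and 64.8 CPM in the diabetic libraries. The highest diabetic value was just under the lowest control value. Its log2 fold change was -0.38 (SE 0.14, edgeR adjusted p = 0.124). It was past the threshold by DESeq2's Wald test, with an adjusted p of 0.0483, a test in which 598 genes were called. The small subunit, Rrm2, whose transcript is made in S phase, had 3, 1, 0, 1 and 1 counts in the controls and 2, 1, 0 and 2 counts in the diabetic libraries, or 6 and 5 counts in 50062982 and 34470805. The 0 of control 4 allows up to 0.322 CPM and that of diabetic 4 up to 0.478 CPM, for counting error only. In the same libraries Mki67 and Top2a had 54 or more counts each. Whether the deposited counting assigned all reads of Rrm2 to it was not tested, so these counts are not read as the level of its transcript.

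The 6 Mcm members encode the MCM2 to MCM7 ring, the helicase loaded on origins in G1 that opens DNA in S phase. Mcm6 (ENSRNOG00000003703, chromosome 13, 45042882 to 45068077, minus strand) was at 76.9, 83.1, 71.45, 78.4 and 67.1 CPM in the controls and 66.6, 57.75, 51.9 and 60.6 CPM in the diabetic libraries. The groups met but did not overlap, diabetic 1 lying just under control 6 (log2 fold change -0.35, SE 0.13, edgeR adjusted p = 0.125, and 0.0499 by DESeq2). Mcm3 was at 68.1, 70.6, 58.7, 66.2 and 63.9 CPM and at 53.7, 55.3, 52.7 and 54.1 CPM. Every diabetic library was below every control, and the diabetic values lay within 3 CPM of each other (log2 fold change -0.28, SE 0.11, edgeR adjusted p = 0.146). Mcm2 was at 45.87, 45.95, 43.3, 43.1 and 37.6 CPM and at 41.7, 28.2, 34.2 and 36.2 CPM. Diabetic 1 was above control 6 for Mcm2, and the other diabetic values were below all controls (log2 fold change -0.30, SE 0.14, edgeR adjusted p = 0.229). Mcm4 and Mcm5 had log2 fold changes of -0.29 and -0.27, with edgeR adjusted p-values of 0.316 and 0.470. Mcm7 stood apart from its partners, with 47.9, 52.3, 41.5, 41.2 and 36.6 CPM in the controls and 46.7, 48.5, 46.5 and 39.2 CPM in the diabetic libraries, overlapping throughout (log2 fold change 0.041, SE 0.13, edgeR adjusted p = 0.880, and -0.070 without controls 4 and 6). Tyms, the enzyme that makes thymidylate (chromosome 9, 121918947 to 121931564, minus strand), was at 20.9 ± 2.43 and 18.2 ± 1.31 CPM (log2 fold change -0.20, edgeR adjusted p = 0.415).

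Pcna, the sliding clamp of the DNA polymerases, behaved unlike the rest of the group. It was at 100.04, 119.5, 241, 127 and 309 CPM in controls 1, 3, 4, 5 and 6 and at 94.2, 103, 104 and 129 CPM in the diabetic libraries. Controls 4 and 6 stood far above the other 7 libraries, which overlapped between the groups. Its log2 fold change of -0.74 (SE 0.40, edgeR adjusted p = 0.289) was -0.12 without controls 4 and 6 (adjusted p = 0.693). In the same pair of libraries the isolation response genes had their highest sums. There 10 activation genes such as Il1b summed to 11917 and 22900 CPM, against 723 to 3833 CPM in the rest. The activation list was chosen with earlier results of these data known, so its sums do not mark that pair independently. Leaving out controls 4 and 6 moved the replication median to -0.35, with log2 fold changes of -0.43 for Mcm6, -0.42 for Rrm1, -0.37 for Mcm2 and -0.35 for Mcm3. Their edgeR adjusted p-values were 0.144, 0.180, 0.233 and 0.158, each larger than with all libraries.

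**Figure D3:**
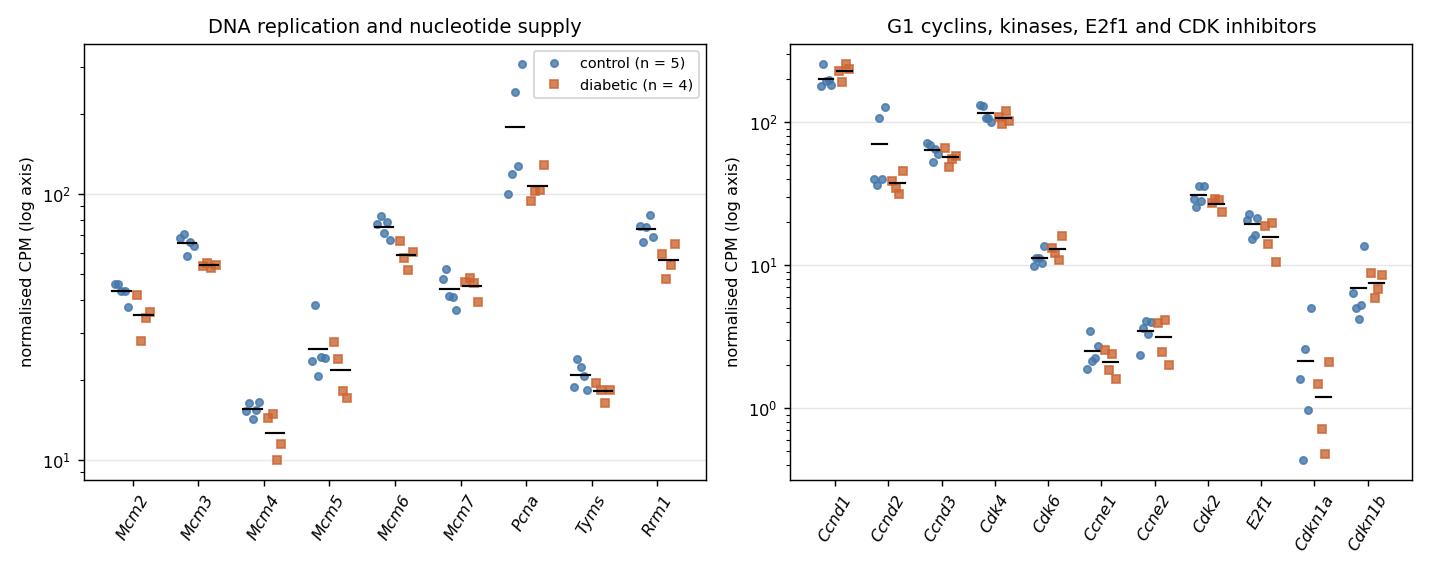
Normalised CPM (log axis) of the 9 tested replication genes (left) and of the G1 genes and CDK inhibitors (right), with 1 point per library and a bar at the group mean (5 control, 4 diabetic). Mcm3, Mcm6 and Rrm1 show no overlap between the groups, and Pcna and Ccnd2 are high in 2 control libraries.

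As background, E2F sites are known from promoters of many S phase genes, and CCAAT boxes and the cell cycle homology region (CHR) from those of many mitotic genes. RefSeq sequences of the 250 bases before the start (build GRCr8) were matched by symbol for 28 of the 38 members. They were searched on both strands for CCAAT, for TTTGAA or TTCGAA as CHR, and for TTGGCGC or TTCCCGC as E2F. The 4 windows shown are those of Mcm6 and Rrm1 from the replication group and of Cdk1 and Mki67 from the mitotic group, 5′ to 3′ on the gene's strand with the matches in capitals, where matches on the other strand read as their complement (ATTGG for CCAAT).
Mcm6 (chr13:42404353-42404602, minus strand): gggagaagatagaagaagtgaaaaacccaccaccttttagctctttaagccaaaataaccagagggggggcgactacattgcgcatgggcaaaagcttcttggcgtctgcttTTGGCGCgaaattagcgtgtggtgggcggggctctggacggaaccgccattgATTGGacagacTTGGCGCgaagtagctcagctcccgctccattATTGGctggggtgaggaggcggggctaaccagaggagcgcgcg
Rrm1 (chr1:166235654-166235903, plus strand): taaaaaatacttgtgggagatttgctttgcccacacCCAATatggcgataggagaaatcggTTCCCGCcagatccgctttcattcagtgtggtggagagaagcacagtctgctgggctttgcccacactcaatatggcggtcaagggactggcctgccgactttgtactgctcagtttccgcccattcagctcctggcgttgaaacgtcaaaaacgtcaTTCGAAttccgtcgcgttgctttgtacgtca
Cdk1 (chr20:19265043-19265292, plus strand): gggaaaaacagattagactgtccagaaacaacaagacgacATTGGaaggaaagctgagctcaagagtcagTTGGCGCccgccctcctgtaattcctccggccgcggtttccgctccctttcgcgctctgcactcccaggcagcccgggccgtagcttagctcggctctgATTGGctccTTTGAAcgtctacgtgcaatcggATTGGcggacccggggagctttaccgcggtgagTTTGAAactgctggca
Mki67 (chr1:199952594-199952843, minus strand): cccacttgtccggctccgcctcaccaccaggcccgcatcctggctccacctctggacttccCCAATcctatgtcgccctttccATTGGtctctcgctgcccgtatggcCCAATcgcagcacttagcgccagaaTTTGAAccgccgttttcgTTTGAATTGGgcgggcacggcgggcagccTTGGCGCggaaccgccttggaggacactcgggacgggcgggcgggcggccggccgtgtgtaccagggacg

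The Mcm6 window held 2 E2F matches and 2 CCAAT boxes, and the Rrm1 window 1 match of each kind. That of Cdk1 held 3 CCAAT boxes, 2 CHR matches and 1 E2F match. The Mki67 window held 4 CCAAT boxes, 2 CHR matches and 1 E2F match, and 1 of its CHR matches overlaps a CCAAT box. An E2F match was found in 5 of 8 replication promoters and 2 of 14 mitotic promoters, beside 5.00% of all 33469 promoters. CCAAT was found in 6 of 8 and 11 of 14, beside 34.0%, and a CHR match in 3 of 8 and 5 of 14, beside 17.4%. The windows of Bub1 and Aurka held no match of any kind. A match is a description of the letters and says nothing of what is bound there.

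The G1 members, the cyclins and kinases that respond to growth signals, did not pass in either direction. Ccnd1, cyclin D1 (ENSRNOG00000020918, chromosome 1, 218090750 to 218100272, minus strand), was at 178, 254, 196, 197 and 183 CPM in the controls and 228, 192, 257 and 238 CPM in the diabetic libraries. Diabetic 1, 4 and 5 were above 4 of the controls, and control 3 was in the midst of them (log2 fold change 0.18, SE 0.13, edgeR adjusted p = 0.419). Ccnd2, cyclin D2 (chromosome 4, 159674885 to 159697207, minus strand), was at 40.2, 36.7, 107, 40.4 and 128 CPM and at 38.8, 34.6, 31.7 and 45.7 CPM. It was high in controls 4 and 6 only, as Pcna was, and its log2 fold change of -0.90 (SE 0.51, edgeR adjusted p = 0.306) was -0.059 without that pair. Ccnd3, cyclin D3 (chromosome 9, 15404822 to 15410943, minus strand), was at 63.9 ± 7.70 and 57.25 ± 7.28 CPM (log2 fold change -0.16).

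The partner kinase gene Cdk4 (chromosome 7, 70349863 to 70352418, plus strand) was at 115 ± 14.5 and 107 ± 9.87 CPM, and Cdk6 at 11.3 ± 1.39 and 13.1 ± 2.20 CPM, with log2 fold changes of -0.11 and 0.22. Cdk2, the kinase of cyclin E (chromosome 7, 3124954 to 3132457, minus strand), was at 31.0 ± 4.80 and 27.0 ± 2.53 CPM. The cyclin E genes were scarce: Ccne1 was at 2.49 ± 0.621 and 2.10 ± 0.455 CPM, and Ccne2, the G1 member with the largest p, at 2.36, 3.64, 4.08, 3.32 and 4.00 CPM in the controls and 3.95, 2.45, 4.14 and 2.00 CPM in the diabetic libraries. E2f1, an activating E2F factor, was at 19.3 ± 3.33 and 15.8 ± 4.19 CPM (log2 fold change -0.30, edgeR adjusted p = 0.417). In all, 7 of the 9 G1 members were below 0 and 2 above, with a median of -0.16 and adjusted p-values from 0.306 to 0.803. The median was -0.051 without normalization factors, -0.059 without controls 4 and 6, and -0.24 (without diabetic 1) to -0.091 (without diabetic 2) when 1 library was left out.

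The inhibitors were low. Cdkn1a, the p21 gene, was at 1.60, 0.433, 2.58, 0.963 and 5.03 CPM in the controls and 1.48, 0.714, 0.478 and 2.10 CPM in the diabetic libraries, on 3 to 39 counts. The order of the libraries was led by controls 6 and 4, and the highest was 11.6-fold above the lowest. The log2 fold change of -0.76 (SE 0.69, edgeR adjusted p = 0.529) turned to 0.28 without controls 4 and 6. Cdkn1b, the p27 gene that holds cells in quiescence, was at 6.42, 5.03, 4.19, 5.24 and 13.5 CPM and at 8.79, 5.92, 6.85 and 8.60 CPM. Control 6 alone was high for Cdkn1b, and the diabetic values ran from within the other controls to above them (log2 fold change 0.14, SE 0.33, edgeR adjusted p = 0.832).

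**Figure D4:**
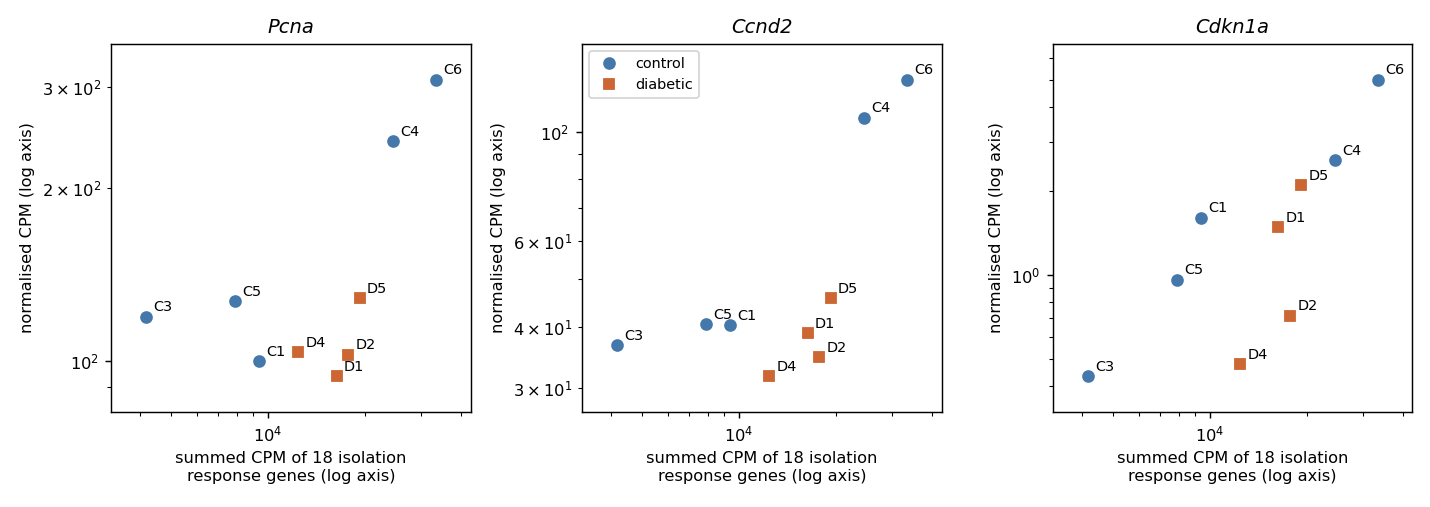
Normalised CPM (log axis) of Pcna, Ccnd2 and Cdkn1a in each library against the summed CPM of 18 isolation response genes (log axis), with C for control and D for diabetic libraries. Controls 4 and 6 have the highest values on both axes for all 3 genes.

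For 11 members the deposited assemblies held a reference transcript at 1 locus, so that CPM could be divided by its annotated length. These lengths differed widely, with 912 bases for Cdk4 and 4244 bases for Aurkb. Whether they match the transcripts made in these cells was not tested, so the order of genes below depends on the annotation. Pcna (154.6 ± 78.5 in control and 92.5 ± 12.8 CPM per kilobase in diabetic libraries) and Cdk4 (126 ± 15.9 and 117 ± 10.8) were the highest. Ccnd1 (52.9 ± 7.97 and 60.01 ± 7.17), Ccnd2 (49.8 ± 30.9 and 26.7 ± 4.30) and Ccnd3 (33.4 ± 4.03 and 30.0 ± 3.81) came next, and the spread of Ccnd2 in control covered both its neighbours. Mcm6 was at 25.8 ± 2.13 and 20.3 ± 2.10 CPM per kilobase. Cdk2 (14.1 ± 2.19 and 12.3 ± 1.15) and Tyms (13.6 ± 1.59 and 11.9 ± 0.853) did not differ from each other beyond their spread. The means of the 3 mitotic genes that could be compared were the lowest, with Birc5 at 6.50 ± 2.06 and 9.33 ± 2.86, where the diabetic libraries of Birc5 overlapped those of Cdk2 and Tyms in range, Cdk1 at 4.72 ± 1.34 and 5.14 ± 2.15, and Aurkb at 1.92 ± 0.679 and 1.75 ± 0.827 CPM per kilobase.

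Other genes of the same pathways were read from lists chosen by function, with 0 genes past the adjusted threshold in each list given here. Their counts stand beside 18.9% of all genes with an unadjusted p below 0.05 and 49.7% with a log2 fold change below 0. Overlap between groups is read on the TMM scale, where 4.16% of all genes were lower and 4.27% higher without overlap. On total counts without TMM factors these shares were 1.41% and 6.91%. Overlap of single genes of these lists was not examined on total counts. Of 46 further replication genes, all tested, 23 were higher and 23 lower with a median log2 fold change of 0.0025. The lean of the 9 tested replication members was thus not seen in the directions or the median of this longer list. Its sums were 1044 to 1178 CPM in control and 1023 to 1045 CPM in diabetic libraries. Diabetic 1 (1045.2 CPM) was just above control 4 (1044.4 CPM), and the other diabetic sums were below every control. Among them Prim2, a primase subunit (38.9 ± 4.86 and 30.0 ± 2.74 CPM), and Slbp, which binds histone messages (99.3 ± 22.4 and 78.0 ± 5.92 CPM), had an unadjusted p below 0.05 in the lower direction. Slbp was highest in controls 4 and 6 (115 and 130 CPM). The other controls, at 78.9 to 93.4 CPM, overlapped the diabetic libraries, at 70.4 to 83.9 CPM. Gins2, a subunit of the helicase complex, was at 8.90 ± 0.805 and 11.1 ± 0.631 CPM, with every diabetic library above every control. Their edgeR adjusted p-values were 0.151, 0.241 and 0.281.

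Of 46 tested further mitotic genes 31 were above and 15 below 0, with a median of 0.090, and 3 in each direction had an unadjusted p below 0.05. Ttk, a spindle checkpoint kinase, was at 74.4 ± 5.32 and 53.1 ± 8.54 CPM, and Smc2, a condensin subunit, at 163 ± 14.3 and 133 ± 6.0 CPM. Both were lower in every diabetic library than in every control. Cdc25b, a phosphatase that activates CDK1, was at 1.14 ± 0.163 and 2.52 ± 0.664 CPM, with every diabetic library above every control. The edgeR adjusted p-values of these 3 genes were 0.0947, 0.130 and 0.123.

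Among 21 tested further G1/S regulators 14 were below and 7 above 0, with a median of -0.13, and 6 (28.6%) had an unadjusted p below 0.05. Rb1, the retinoblastoma gene whose protein holds E2F factors inactive, was at 71.0 ± 12.9 and 44.8 ± 7.49 CPM (log2 fold change -0.66, SE 0.20, edgeR adjusted p = 0.0927). The diabetic values of Rb1, 34.7 to 51.5 CPM, were all below the control values of 56.3 to 85.6 CPM, of which controls 4 and 6 were the highest. E2f6, a repressing E2F factor, was at 118.5 ± 10.7 and 93.5 ± 8.07 CPM, and Ccnc, cyclin C of the Mediator kinase module, at 76.3 ± 10.9 and 56.15 ± 1.98 CPM. Neither overlapped between the groups, and their edgeR adjusted p-values were 0.123 and 0.102.

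Among 12 tested further CDK inhibitors and brakes 9 were below and 3 above 0. Wee1, the kinase that keeps CDK1 inactive, was at 25.2 ± 13.6 and 12.6 ± 3.41 CPM, with its highest values in controls 4 and 6. Cdkn3, a phosphatase acting on CDKs, was at 1.03 ± 0.531 and 2.00 ± 0.763 CPM. Their edgeR adjusted p-values were 0.224 and 0.305. Ccng1, cyclin G1, was at 201 ± 21.9 and 159 ± 24.9 CPM (edgeR adjusted p = 0.171).

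Receptors and ligands that govern microglial growth had 13 tested genes, 9 above and 4 below 0, of which 5 (38.5%) had an unadjusted p below 0.05. Csf1r, the CSF1 receptor gene, singled out after its values were seen, was at 11106 ± 601 and 10034 ± 388 CPM. On the TMM scale it was lower in every diabetic library than in every control (log2 fold change -0.15, edgeR adjusted p = 0.249). Csf2ra, the alpha chain of the GM-CSF receptor, was at 16.7 ± 1.51 and 33.5 ± 9.62 CPM, with 14.9 to 18.8 CPM against 20.8 to 43.15 CPM. Its log2 fold change of 1.00 (SE 0.26) had an edgeR adjusted p of 0.0620, short of the threshold. Its ligand gene Csf2 was at 0 in all libraries. Tgfbr1, a receptor of TGF-beta, was at 1259 ± 203 and 853 ± 107 CPM, and Cebpa, a myeloid transcription factor, at 47.9 ± 11.1 and 67.85 ± 8.09 CPM. Neither overlapped between the groups, and the edgeR adjusted p-values were 0.0897 and 0.143. The 11 neutrophil and monocyte genes, tested or not, also summed higher in diabetic libraries (28.7 to 96.5 CPM, against 4.90 to 16.5 CPM in control). The 6 border macrophage genes, all tested, had a median log2 fold change of 1.01. The part of these cells in Csf2ra and Cebpa was not tested.

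The authors' deposited table listed 37 members, none with an adjusted p below 0.05, where 2.10% of its genes had one. The authors' deposited table gave 5 members an unadjusted p below 0.05 (15.2% of its genes had one), with log2 fold changes of -0.72 for Ccnd2, -0.58 for Pcna, 0.64 for Birc5, 0.88 for Plk1 and 0.76 for Kif20a. The median log2 fold change over all genes of the authors' deposited table was 0.12, as in the edgeR fit without normalization factors. For the same members in that order, that fit gave -0.72, -0.58, 0.64, 0.88 and 0.75. Both rest on the same counts, so the deposited values are not separate support for these members.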

How the data were processed

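The deposited table of raw counts per gene symbol holds 1 column per library; neither its counting program nor its strand setting is given in the sources used here, so genes that overlap or share reads are uncertain. The submitters' processing notes name bcl2fastq 2.18.0.12, TopHat2 2.0.14, StringTie 1.2.4, edgeR and build Rnor_6.0. A second table gives the authors' own log2 fold changes and p-values as deposited, without a stated model; their sign was that of diabetic minus control when set against the counts. Positions and lengths come from StringTie assemblies on the Ensembl annotation, per the file headers.

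Per the labels, RNA was preamplified with a SmartSeq kit and no molecular identifiers are named, so counts are reads, and floors cover counting error only. All libraries shared 1 flow cell and lane. Total counts ran from 6228756 to 11332823. Genes were filtered with filterByExpr, given the groups and a minimum total of 15. It also asks for the CPM equivalent of 10 counts in as many libraries as the smaller group holds. Counts were scaled with TMM factors. All 11748 genes left were tested with the edgeR 4.0.16 quasi-likelihood test (robust, no covariates) in R 4.3.3. Benjamini-Hochberg adjustment was applied over them, with a threshold of 0.05. SEs are the log2 fold change over the normal quantile of its p, and 95% intervals follow from them. The fit was tested on simulated data. Alternatives were RLE factors, no factors, no filter, DESeq2 1.42.0, limma-voom 3.58.1, the replicate number as block, and leaving out each library or controls 4 and 6 together. No 2 libraries agreed within sampling noise (chi-square per degree of freedom at least 11.7). The members and gene lists were chosen with earlier results of these data known. Values in each library are given for Mki67, Top2a, Cdk1, Ccna2, Ccnb1, Mcm2, Pcna, Ccnd1, Cdkn1a, Cdkn1b, members without overlap, and the smallest and largest p per role; further members' values were chosen after they were seen. Of each pathway list reported the 3 genes of smallest p are named; 1 list is not reported here.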

Additional observations from a re-analysis of the deposited data

Results flagged for a closer look

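Of 74 pairs of a tested member and a group, 4 held a library set apart from the others of its group by a gap past Dixon's critical value on log2 CPM, and chance gives about 1 in 20. Ccnd1 was at 254 CPM in control 3, against 178 to 197 CPM in the other controls, and Mcm5 at 38.4 CPM in the same library, against 20.7 to 24.4 CPM. Tpx2 was at 3.02 CPM in control 1, against 6.83 to 8.76 CPM in the other controls. Kif20a was at 5.50 CPM in diabetic 5, against 11.1 to 11.8 CPM in the other diabetic libraries.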

How the results depend on the processing

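Over all genes the 8 calls became 29 without normalization factors (28 of them higher), 42 without a filter on low counts, 598 by DESeq2's Wald test, 4 by limma-voom, 0 with the replicate block, 0 without controls 4 and 6, and 0 to 75 when 1 library was left out (75 without control 1; 0 without control 4, diabetic 1 or diabetic 4; 1 without control 3 or 5; 2 without diabetic 2). In the fits with 0 calls by edgeR, 1129 to 1792 genes had an unadjusted p below 0.05. Among members only DESeq2 made calls, 2 of them (Mcm6 and Rrm1); the other 15 alternatives made 0. The replication median log2 fold change was -0.17 without normalization factors and -0.40 to -0.27 when 1 library was left out; with the replicate block the mitotic median was 0.32 and the G1 median -0.062. Of 37 members 23 kept their sign under all 16 alternatives. Signs turned without factors for Aurka (0.016) and Tpx2 (0.098), and by limma-voom for Cdk1 (-0.013), Bub1b (0.031) and Tpx2 (0.040). With the replicate block they turned for Ccne1 (0.044), Ccne2 (0.025), Top2a (0.13), Bub1b (0.23), Aurkb (0.059), Cenpe (0.70) and Tpx2 (0.32). Without controls 4 and 6 they turned for Mcm7 (-0.070), Cdk1 (-0.15), Ccna2 (-0.17), Ccnb1 (-0.042), Bub1b (0.0077), Cenpf (-0.019), Tpx2 (0.080) and Cdkn1a (0.28). With 1 library left out the ranges that crossed 0 were -0.31 to 0.0084 for Ccne2, -0.017 to 0.11 for Mcm7, -0.17 to 0.32 for Cdk1, -0.11 to 0.26 for Ccna2, -0.086 to 0.29 for Ccnb1, -0.40 to 0.12 for Bub1b, -0.51 to 0.061 for Aurkb, -0.52 to 0.26 for Cenpe, -0.012 to 0.48 for Cenpf and -0.22 to 0.097 for Tpx2. The cause was not tested.

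The groups share numbers 1, 4 and 5, but same-numbered libraries deviated together with r of 0.20, -0.11 and 0.016 across genes, so the numbers were not taken as pairs; with the replicate block 0 members passed. Leaving out a library also lowers the number compared. Low counts limit Cdkn1a and the mitotic genes.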
